A study of Mus musculus with 8 samples.

Results

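Sites that carried phosphorylated RNA polymerase II in a Myrlin knockdown line but not in its control line were described here: 549 of the 56005 regions obtained by merging the peaks of 8 CUT&Tag libraries, or 0.98%. They were chosen by the presence of peaks. A region entered when at least 3 of the 4 knockdown (KD) libraries had a peak in it and none of the 4 control libraries did. The peak calls that selected the regions are therefore not a result, and the folds and pileups of those peaks are given as a description with no test. Since each antibody was used on only 2 KD libraries, a rule of at least 3 admits only regions with peaks of both antibodies, so every gained region carried both marks and not either mark alone.

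The cells were MEL cells, a mouse erythroleukaemia line blocked at an early erythroid stage. The labels give the genotypes as dCAS control and Myrlin KD, and whether the KD line carries the same dCAS construct is not given in the sources used here. Both lines grew in the same serum-containing medium with no further agent. Myrlin is the transcript of the enhancer that lies 81 kb upstream of Myb, the gene of a transcription factor that keeps blood progenitors dividing. Each line was profiled with an antibody against the C-terminal domain of Rpb1 phosphorylated on serine 5 (Ser5P) and with an antibody against serine 2 (Ser2P), with 2 biological replicates each. Whether each line is a single clone, and how the replicate cultures were kept apart, is not given in the sources used here, and Myrlin itself was not measured.

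Rpb1 is the largest subunit of RNA polymerase II, and its C-terminal tail is phosphorylated in steps as a gene is transcribed. Serine 5 is modified at initiation and serine 2 during elongation, so Ser5P is known to concentrate at gene starts and Ser2P to rise towards gene ends. Active enhancers are transcribed as well and can carry both forms. CUT&Tag brings a transposase to the antibody, which inserts adapters into DNA close by, and a peak is a place where the resulting fragments pile up above the local background.

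The 200 bases before the start site of 4 genes are printed because a gained region lay at each start and because they differ widely in composition. They come from RefSeq for GRCm38.p6 and read 5′ to 3′ along the gene. Capitals mark a TATA box (TATAAA), a GC box (GGGCGG) or a CCAAT box (CCAAT) on either strand, and none of these 3 motifs contains another. The Polr2m window is chr9:71485984-71486183 (minus strand), that of Mbnl3 is chrX:51205991-51206190 (minus strand), that of Pilrb2 is chr5:137871759-137871958 (minus strand) and that of Ctdsp1 is chr1:74391409-74391608 (plus strand). None of the 4 windows overlaps an annotated gene.
Polr2m: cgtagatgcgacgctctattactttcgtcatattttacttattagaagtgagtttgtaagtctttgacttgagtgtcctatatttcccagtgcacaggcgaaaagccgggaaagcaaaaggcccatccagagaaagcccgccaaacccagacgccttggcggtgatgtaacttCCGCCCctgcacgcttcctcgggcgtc
Mbnl3: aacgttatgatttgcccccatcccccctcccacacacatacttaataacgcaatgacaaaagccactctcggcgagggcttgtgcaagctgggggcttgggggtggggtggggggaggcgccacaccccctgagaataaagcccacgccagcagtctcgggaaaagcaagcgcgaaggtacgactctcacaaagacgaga
Pilrb2: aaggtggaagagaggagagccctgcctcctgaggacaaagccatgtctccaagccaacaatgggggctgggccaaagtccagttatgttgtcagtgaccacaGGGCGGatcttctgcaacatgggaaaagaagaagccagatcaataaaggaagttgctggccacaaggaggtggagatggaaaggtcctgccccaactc
Ctdsp1: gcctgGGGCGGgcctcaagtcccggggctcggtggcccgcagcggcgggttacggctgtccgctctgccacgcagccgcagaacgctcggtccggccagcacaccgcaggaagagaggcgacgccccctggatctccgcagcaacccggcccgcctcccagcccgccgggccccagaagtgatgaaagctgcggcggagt
The Polr2m and Ctdsp1 windows overlap their gained regions (chr9:71485288-71486069 and chr1:74391195-74391587), as does that of Pilrb2 (chr5:137871516-137872392), whereas the gained region of Mbnl3 (chrX:51204715-51205498) begins inside the gene. Polr2m, Pilrb2 and Ctdsp1 each hold a GC box, and the Mbnl3 window holds none of the 3 motifs. CpG dinucleotides were at 0.96 of the number expected from base composition in the 250 bases before the Polr2m start, 0.69 for Mbnl3, 0.86 for Ctdsp1 and only 0.07 for Pilrb2.

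Among all 53 gained gene starts with a RefSeq promoter sequence, the median GC content of these 250 bases was 59.2% (range 37.6% to 84.4%), between the 61.2% of 5879 starts marked in all 8 libraries and the 55.6% of all 21254 promoters in the table. A CpG ratio of at least 0.6 was found in 36 of the 53 (67.92%), against 77.68% and 44.72%. A GC box stood in 34 of 53 (64.15%), near the 66.34% of the starts marked in all 8 libraries and above the 42.63% of all promoters. The CCAAT box was in 10 of 53 (18.87%), against 40.42% and 35.38%. A TATA box was found in 3 of 53 (5.66%), against 4.98% and 11.63%. The GATA motif AGATAA, the core read by erythroid GATA factors, was in 6 of 53 (11.32%), against 4.83% and 8.81%. These are matches of letters in a fixed window, and the differences were not tested.

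Depth differed between the lines. The most frequent background pileup of a library, used as its relative depth, was 0.649 and 0.841 in the Ser5P KD libraries against 0.566 and 0.639 in the controls, and 1.12 and 1.03 in the Ser2P KD libraries against 0.78 and 0.439. The libraries held 20793 to 32125 peaks. Among defining erythroid genes, Klf1, Tal1, Epor and Nfe2 had a start marked in all 8 libraries, whereas no library had a peak at the starts of Hba-a2, Hbb-bt, Alas2 or Slc4a1. No gene on the 20-gene lymphoid or myeloid lists had a start marked in all 8 libraries. Of 18 megakaryocyte and mast cell genes 3 had one, and of 20 non-haematopoietic genes 1.

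The gained regions were not the most numerous set that these libraries can form. The 8 libraries can be arranged as 4 against 4, with 2 libraries of each antibody on each side, in 36 ways. The 34 arrangements that mix the lines gave 84 to 615 regions (median 221.5), and 2 of them exceeded the 549 gained regions. The larger, with 615 regions, put Ser5P control 1, Ser5P control 2, Ser2P control 1 and Ser2P KD 1 on the marked side. The other, with 605, put the deeper Ser5P control and Ser5P KD 2 beside both Ser2P KD libraries. The mirror rule, a peak in at least 3 control libraries and in no KD library, gave 476 lost regions, 0.85% of all.

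Length of list and depth moved this order. When every library gave its 20793 strongest peaks, 424 regions were gained and 514 lost, and none of the mixed arrangements (120 to 280) reached either count. When each peak was scaled to the depth of the shallowest library, Ser2P control 2, 198 regions were gained and 809 lost. There 17 of the 34 mixed arrangements (84 to 554) exceeded the gained count and none exceeded the lost count. The excess of gained over lost regions was thus present only in the lists as deposited among these 3 peak sets.

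**Figure D1:**
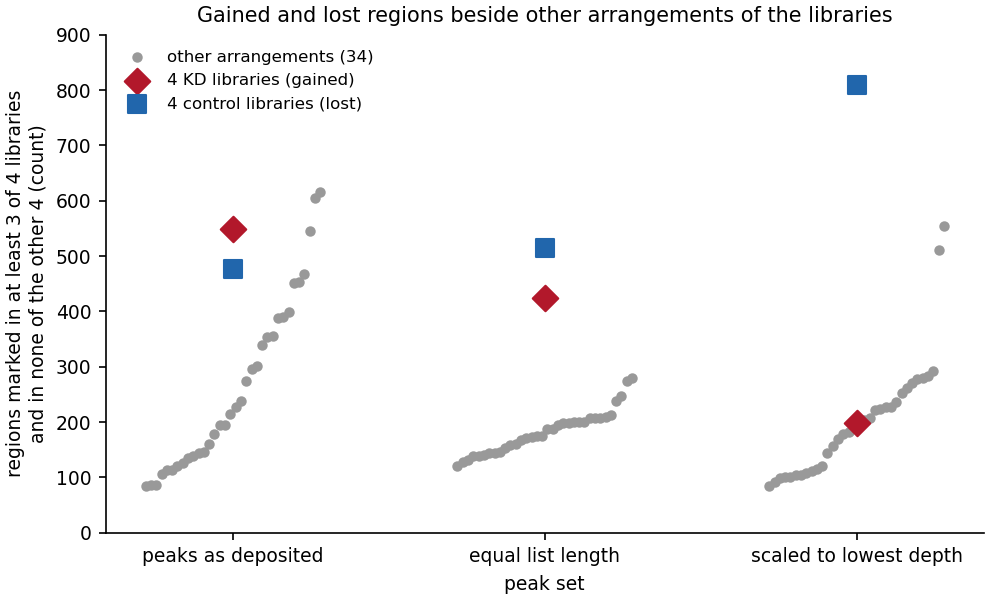
Number of regions with a peak in at least 3 libraries of the marked side and in none of the other side (vertical axis, count) for all 36 balanced arrangements of the 8 libraries, under 3 peak sets (horizontal axis). Diamonds are the 4 KD libraries (549, 424 and 198 gained regions), squares the 4 control libraries (476, 514 and 809 lost regions) and grey points the 34 mixed arrangements.

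Most gained regions met the rule with no library to spare. A peak in all 4 KD libraries was found in 103 (18.76%), and 446 had exactly 3. The absent library was Ser5P KD 1 in 202 regions, Ser5P KD 2 in 119, Ser2P KD 2 in 69 and Ser2P KD 1 in 56, which is the reverse of their order by depth. Just outside the rule lay 2025 regions with 2 KD libraries and no control, 1125 of them in libraries of the same antibody. A further 1119 regions had at least 3 KD libraries and a peak in 1 control, and in 512 of these that control was Ser2P control 1, the deepest of the controls. In only 123 it was the shallowest, Ser2P control 2.

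The peaks in gained regions were weak beside those of the 11773 regions marked in all 8 libraries, called constantly marked below. In Ser5P KD 1 the median fold over local background, the authors' value for the peak, was 3.85 in 347 gained regions with a peak, against 6.72 in the constantly marked ones. In Ser5P KD 2 it was 3.75 against 6.57, in Ser2P KD 1 3.55 against 6.59 and in Ser2P KD 2 3.61 against 6.43. The median summit pileup, the number of fragments stacked at the highest point, was 13, 15, 19 and 18 in the same order, against 33, 39, 45 and 41. In each of the 4 libraries the quartiles of fold of the 2 sets did not overlap. Both sets were chosen by these peak calls, and a peak in all 8 libraries asks for more signal. The difference therefore follows in part from the rules and is a description only.

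**Figure D2:**
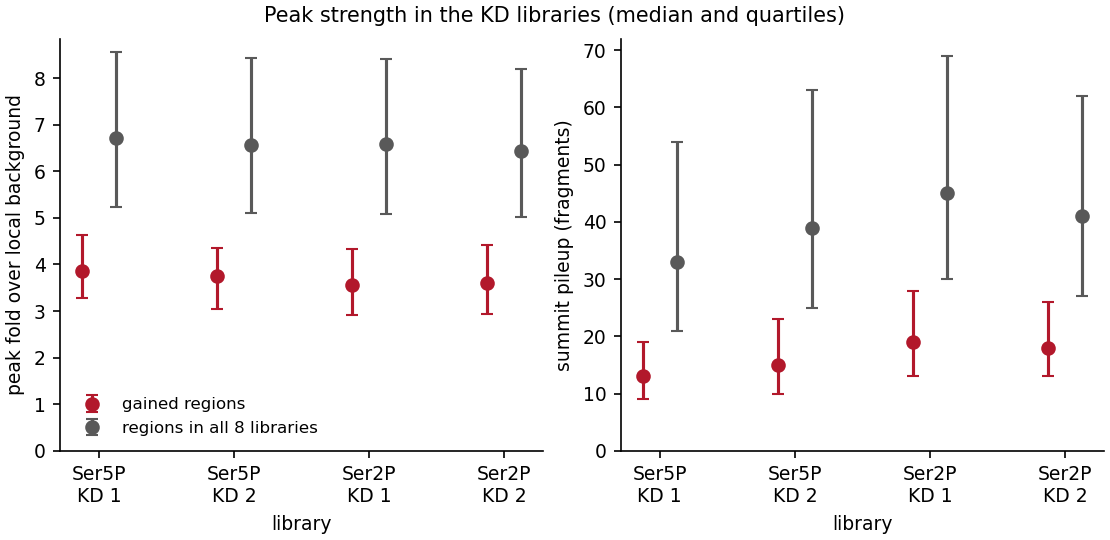
Peak fold over local background (left) and summit pileup in fragments (right) in each of the 4 KD libraries, as median with quartiles, for gained regions (red) and regions marked in all 8 libraries (grey). The gained medians lie between 3.55 and 3.85 for fold and between 13 and 19 for pileup, under the grey points in every library.

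Of the 1750 strongest peaks per region and library, 35.2% reached a −log10 q of 5, against 65.67% of all KD peaks. In 41 regions every KD peak reached it, and 70 regions had a KD peak with a −log10 q under 2. The mean Ser5P summit and the mean Ser2P summit lay a median of 98.5 bp apart, within 200 bp in 436 of 549 regions. Replicate Ser5P summits lay 96 bp apart and replicate Ser2P summits 110 bp. Since each region is a run of overlapping peaks, its summits lie close by construction, and these distances are a description only. Regions had a median width of 596 bp (254 to 1506), against 512 bp for lost regions and 1000 bp for regions marked in all 8 libraries. Merging the peaks of more libraries widens a region, so the last value is not a like comparison. In chromatin from bulk cells, a stronger mark per cell and more cells with the mark cannot be told apart.

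Many gained regions lay close to control peaks that did not overlap them. The nearest control peak was a median of 5208 bp away (65 to 805045), 46 regions had one within 500 bp and 95 (17.3%) within 1000 bp. The farthest, chr7:76719377-76719984 in Agbl1, lay 805045 bp from any control peak. Depth bears on this measurement. If the KD pileup of a region is scaled to a control library, it would reach the lowest −log10 p of that list in 510 regions for Ser5P control 1, 537 for Ser5P control 2, 538 for Ser2P control 1 and 258 (46.99%) for Ser2P control 2. For 240 regions all 4 controls would have been reached, for 271 exactly 3, and for 38 fewer. The peaks were chosen as present in the KD libraries, which lifts these counts. With the lines exchanged, all 476 lost regions (100%) would have reached all 4 KD libraries, a count lifted in the same way.

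Gained regions lay mainly inside genes, in a share near that of all merged regions. Over all regions 51.61% lay within a protein-coding gene and 19.3% in intergenic DNA, and of lost regions 58.4% and 26.05%. Among gained regions the places were as follows. The centre fell within a protein-coding gene in 297 regions (54.1%), in intergenic DNA in 119 (21.68%), within 1000 bp of a protein-coding gene start in 66 (12.02%, 95% Wilson interval 9.56% to 15%, for counting error only), within 3000 bp past a gene end in 39 (7.1%), within another kind of gene in 23 and at a lncRNA start in 5. By contrast 58.81% of the regions marked in all 8 libraries and 18.73% of all regions lay at gene starts. Lost regions had 5.25% at gene starts and 2.52% past gene ends. The share past gene ends, where Ser2P is known to be high, was 5.14% over all regions. No gained region overlapped an annotated miRNA hairpin.

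**Figure D3:**
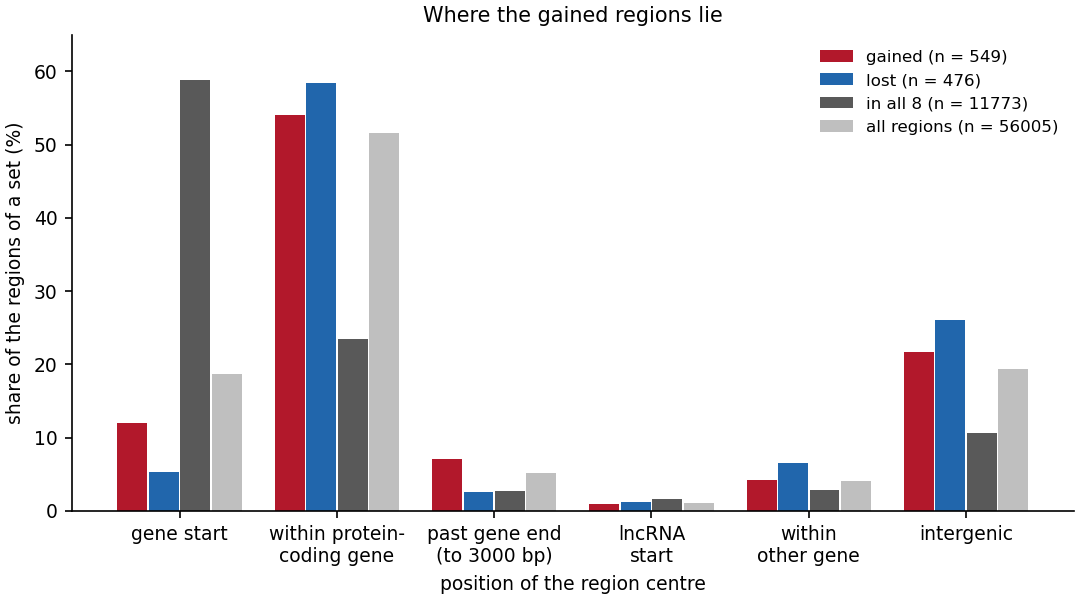
Share of regions (vertical axis, %) by the position of the region centre (horizontal axis) for the 549 gained, 476 lost, 11773 constantly marked and 56005 merged regions. Gained regions are at 12.02% for gene starts, against 58.81% for regions marked in all 8 libraries. Within protein-coding genes they are at 54.1%, against 51.61% for all merged regions.

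In all, 347 of 21883 protein-coding genes (1.59%) held a gained region at a start or inside, and 295 (1.35%) held a lost region. The 279 genes with a gained region inside were long, with a median of 56551 bp against 17266 bp for all genes with a placed start and 71182 bp for genes holding a lost region. In 160 of them (57.35%) a start was marked in all 8 libraries, against 36.78% of all genes and 53.73% of genes holding a lost region. Among genes over 100 kb the shares were 59.77% for 87 holders of a gained region and 27.92% for the others, and up to 20 kb they were 53.33% of 45 and 32.68%. Gained regions inside genes thus lay mostly in genes whose start already carried both marks in the control line. Of the 66 genes with a gained region at a start, 15 (22.73%) had a start marked in all 8 libraries, such as another promoter of the same gene.

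The gene starts with the highest smallest fold were led by Mbnl3, which encodes a muscleblind-like regulator of splicing, on chrX:51204715-51205498. Its folds were 7.51 in Ser5P KD 2, 6.3 in Ser2P KD 1 and 5.36 in Ser2P KD 2, with no peak in Ser5P KD 1. Zfp850, a zinc finger gene (chr7:28013923-28014435), had folds of 5.93 and 5.25 for Ser5P and 5.37 in Ser2P KD 1. Adarb1, the gene of the RNA editing enzyme ADAR2 (chr10:77417826-77419062), had 4.89 in Ser5P KD 2 and 6.14 and 4.89 for Ser2P. Each of the 3 lacked a peak in 1 KD library, and the nearest control peaks were 95496, 34321 and 20322 bp away. Summit pileups were 18, 16 and 12 fragments at Mbnl3, 10, 11 and 11 at Zfp850 and 8, 15 and 10 at Adarb1. The lowest summit pileup in the KD lists was 5 for Ser5P and 6 for Ser2P, so some high folds rest on few fragments.

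Polr2m encodes Gdown1, a polymerase II-associated protein known as a negative regulator of transcription. Its start region (chr9:71485288-71486069) was marked in all 4 KD libraries, with folds of 4.56 and 4.68 for Ser5P and 7.11 and 5.26 for Ser2P. The summit pileups behind them were 10, 10, 21 and 15 fragments. No control peak lay within 106032 bp. Under the stricter threshold the region was not gained, since both Ser5P peaks had a −log10 q under 5 (3.9 and 4.12).

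Of the 15 leading gene starts, 3 (Polr2m, Glipr1 and Reps1) were marked in all 4 KD libraries. At Glipr1 (chr10:112002364-112003102) the folds were 4.35 and 4.23 for Ser5P and 4.46 and 5.63 for Ser2P, on summit pileups of 7, 7, 11 and 11 fragments. At Reps1, which encodes an adaptor of receptor endocytosis (chr10:18055199-18056119), the folds were 3.91, 5.27, 5.14 and 5.56 in the same order, on 9, 16, 17 and 18 fragments. Reps1 kept the call under every alternative that was run. The other starts were those of Elf2 (an ETS family factor), Otud3 (a deubiquitinase), Rbms1 (an RNA-binding protein), Pilrb2 (an immunoglobulin-like receptor), Cnmd, Dmxl2, Dcun1d1 (a cullin neddylation factor), Cilk1 (a ciliary kinase) and Dlg3 (a scaffold protein), with smallest folds between 3.85 and 4.76. The Elf2 region (chr3:51276641-51277759) lay 279 bp from a constantly marked region.

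**Figure D4:**
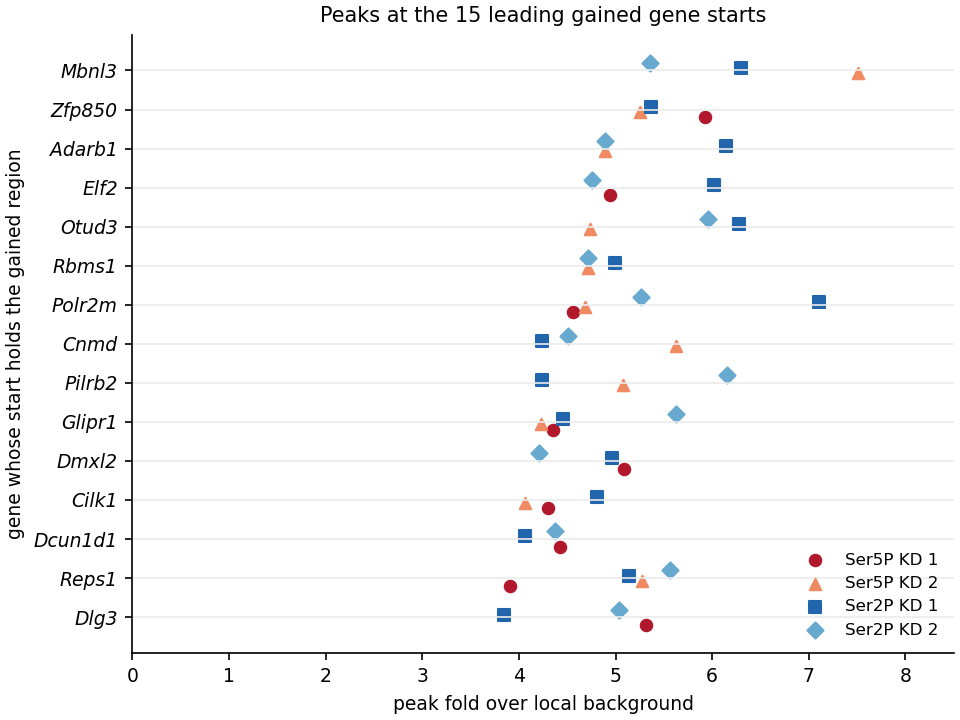
Peak fold over local background (horizontal axis) at the 15 gained gene starts with the highest smallest fold, a symbol for each KD library with a peak (circles and triangles Ser5P, squares and diamonds Ser2P). Polr2m, Glipr1 and Reps1 show 4 symbols and the other 12 genes 3, with the highest value at Mbnl3 (7.51).

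Away from gene starts, the region with the highest smallest fold over all 4 KD libraries lay inside Panx1, the gene of a membrane channel (chr9:15017812-15018643, 27251 bp from the nearest start). Its folds were 6.27 and 6.49 for Ser5P and 5.97 and 6.41 for Ser2P, a narrow range over the 4 libraries. The region inside Ccdc30 (chr4:119369342-119370157) had 5.81 and 7.46 for Ser5P and 8.13 and 6.98 for Ser2P. An intergenic region 44258 bp from the nearest start, that of the transcription factor gene Ets1 (chr9:32591665-32592302), had 7.91, 5.35, 5.53 and 6.96 in the same order. Control peaks were 10533, 29878 and 10741 bp away.

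An intergenic region nearest to Sap18 (chr14:57772288-57772884) had folds of 7.25, 6.52, 6.13 and 5.3, and a region 269275 bp from any placed start (chr12:65494474-65495111) had 7.26, 6.52, 4.72 and 5.91. The summit pileups were only 11, 11, 12 and 10 fragments near Sap18 and 13, 11, 9 and 11 in the chromosome 12 region. Inside Akap7, which anchors protein kinase A (chr10:25233688-25234602), the folds were 4.73, 6.62, 4.9 and 5.95, with a control peak 512 bp away. Inside Rnaseh2b, a subunit of the nuclease that removes RNA from DNA (chr14:62342665-62343419), they were 6.63, 5.22, 4.19 and 4.66. The order of the folds varied: at Sap18, Rnaseh2b and the chromosome 12 region both Ser5P folds lay above both Ser2P folds, and at Polr2m and Glipr1 both lay below. The pileups were small and the Ser2P KD libraries deeper than the Ser5P ones, so this order does not rank the antibodies. A region within a gene that is not protein-coding, nearest to the start of the innate immune receptor gene Tlr1 (chr5:64884060-64884534), had 6.16 and 4.78 for Ser5P and 6.63 and 5.14 for Ser2P. Among regions with 3 KD libraries, the one inside Fndc3a (chr14:72602967-72603429) had folds of 5.87 in Ser5P KD 2 and 6.38 and 9.66 for Ser2P, and lay 501930 bp from the nearest control peak. Another, an intergenic region nearest to Pkdcc (chr17:83001282-83001779), had 7.88 in Ser5P KD 1 and 5.6 and 6.41 for Ser2P. A region inside Exoc5, a subunit of the exocyst (chr14:49019798-49020116), had 5.39 in Ser5P KD 1 and 6.84 and 5.64 for Ser2P, and one inside the predicted gene Gm525 (chr11:89092885-89093205) had 7.28 and 5.85 for Ser5P and 5.42 in Ser2P KD 2. Summit pileups were 12, 11 and 12 fragments near Pkdcc, 10, 20 and 19 in Exoc5 and 11, 10 and 10 in Gm525.

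The gene lists held few gained regions. Of 30 erythroid genes only Tfrc, the transferrin receptor that takes up iron, held any, and it held 2 (chr16:32622540-32623165 and chr16:32625680-32626365). Their folds ran from 2.86 to 3.8, and each contained a peak with a −log10 q under 2. Neither was gained under the stricter threshold. Of 21 progenitor genes linked to Myb, Cdk6 and Etv6 held 1 each (9.52%, against 1.59% of all genes). On the same list 4.76% held a lost region, against 1.35% of all genes. These shares take no account of gene length, although genes with a gained region inside were long, and no enrichment was tested. Cdk6 encodes a cell cycle kinase, and its region (chr5:3406705-3407031) had folds of 3.75 in Ser5P KD 2 and 4.16 and 3.46 for Ser2P. Etv6 encodes an ETS family repressor, and its region (chr6:134121778-134122182) had 5.08, 4.27 and 3.26 in those libraries. Etv6 also held a lost region. Neither region was gained under the stricter threshold, and that of Etv6 was also not gained at equal list length or at scaled depth.

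Of 56 replication and cell cycle genes, 2 held a gained region (3.57%). Orc1, a subunit of the origin recognition complex (chr4:108604677-108605458), had folds of 3.21 in Ser5P KD 1 and 4.2 and 3.74 for Ser2P. E2f8, a repressor of the E2F family (chr7:48881714-48882824), had 3.97 in Ser5P KD 2 and 2.74 and 3.72 for Ser2P, with a region marked in all 8 libraries 195 bp away. Neither was gained under the stricter threshold, at equal list length or at scaled depth, and E2f8 was also not gained when peaks up to 500 bp apart were merged or when a distance of 1000 bp from control peaks was needed. None was found on the lists of the MLL1 complex (11 genes), polymerase kinases and elongation factors (32), immediate-early and stress genes (38), the HOXA cluster with its partners (15), adhesion and cytoskeleton (27), or lymphoid (20), myeloid (20), megakaryocyte and mast cell (18) and non-haematopoietic (20) markers. At 1.59% of genes, lists of this size hold less than 1 such gene on average, so a count of 0 carries little information. No gained region lay within 500 kb of the Myb start. The nearest, near the start of Mtfr2 (chr10:20348579-20348978), was 812 kb away.

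Some members outside those lists were picked after their values were seen, for what the genes do to polymerase or chromatin. Ctdsp1 encodes a phosphatase that acts on serine 5 of the polymerase tail, and its start region had folds of 3.35 and 2.87 for Ser5P and 3.2 in Ser2P KD 1. A control peak lay 478 bp away. Rngtt, the mRNA capping enzyme that binds the Ser5P tail, held 2 regions, at chr4:33386912-33387680 with 5.53 and 4.32 for Ser5P and 5.08 in Ser2P KD 1, and at chr4:33403036-33403744 with 4.2, 4.24 and 4.2 in Ser5P KD 1, Ser2P KD 1 and Ser2P KD 2. Both lay over 75 kb from the Rngtt start. Pbrm1 and Arid2, which encode subunits of the PBAF chromatin remodeller, held 1 and 2. Inside Pbrm1 (chr14:31062200-31063218) the folds were 6.09 in Ser5P KD 1 and 4.23 and 4.77 for Ser2P. Cbfa2t3, an erythroid corepressor gene, held a region (chr8:122689361-122689743) with 3.48 and 3.01 for Ser5P and 2.98 in Ser2P KD 1, and Timeless, a replication fork factor, held one (chr10:128239167-128239645) with 4.99, 4.66 and 4.52 in those libraries.

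Gained regions were mostly scattered, with 98 of 549 within 100 kb of another and 423 of 1932 occupied 1 Mb bins holding any. The highest number in a bin was 6, on chromosome 2 from 4 to 5 Mb and on chromosome 8 from 123 to 124 Mb. The gene with the most was Frmd4a, in the former bin, which encodes a FERM domain scaffold of cell polarity and spans chr2:4017650-4614043 on the plus strand. It held 5 gained regions, 4 of them between chr2:4497101 and chr2:4507260, and no lost region lay in that bin, against 2 in the bin on chromosome 8. The folds of these 4 were low, from 1.71 to 2.7, on summit pileups of 103 to 183 fragments. The fifth, at chr2:4601016-4601712, had folds of 2.77 in Ser5P KD 2 and 3.08 and 2.68 for Ser2P, on pileups of 32, 37 and 32. At chr2:4506366-4507260 the summit pileup was 174 and 183 fragments for Ser5P and 124 and 112 for Ser2P, with local backgrounds of 66.2, 83.6, 47.3 and 40.8. The low fold there goes with a high local background, and not with few fragments.

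Regions beside them that had peaks in both lines, and so were not gained, carried the same difference. At chr2:4494150-4495194 the summit pileup over relative depth was 188 and 184 in the Ser5P KD libraries against 37.1 and 36 in the controls, and 160 and 144 in the Ser2P KD libraries against 23.1 in Ser2P control 1, with no peak in Ser2P control 2. The local background over relative depth was 69.2, 62.5, 52.7 and 54.3 in the KD libraries, against 3.62, 3.82 and 2.95 in the 3 controls with a peak. Across the stretch chr2:4493652-4510345, of 16694 bp, this quantity was 27.6 to 102 at the 24 KD peaks and 1.95 to 3.86 at the 7 control peaks, with no overlap.

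The difference was smaller outside the stretch. At chr2:4517332-4518279 the local background over depth was 9.13 and 8.92 for Ser5P and 3.22 and 3.68 for Ser2P in the KD libraries, against 2.53, 2.92 and 1.33 in the controls with a peak. Near the downstream Frmd4a start (chr2:4559493-4560215) it was 16.6, 15.9, 8.81 and 8.71 against 10.7, 10.2, 7.11 and 6.54. Among 18032 regions with a peak of each antibody in each line, those at chr2:4507796-4510345 and chr2:4494150-4495194 ranked first and second by the KD minus control difference in log2 background, with 4.35 and 4.16 as the mean of both antibodies. The next region, beside Ccr1, reached 1.73. The nearest annotated Frmd4a starts lie 66.1 kb downstream and 92.7 kb upstream of its first base, and what underlies it was not tested.

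**Figure D5:**
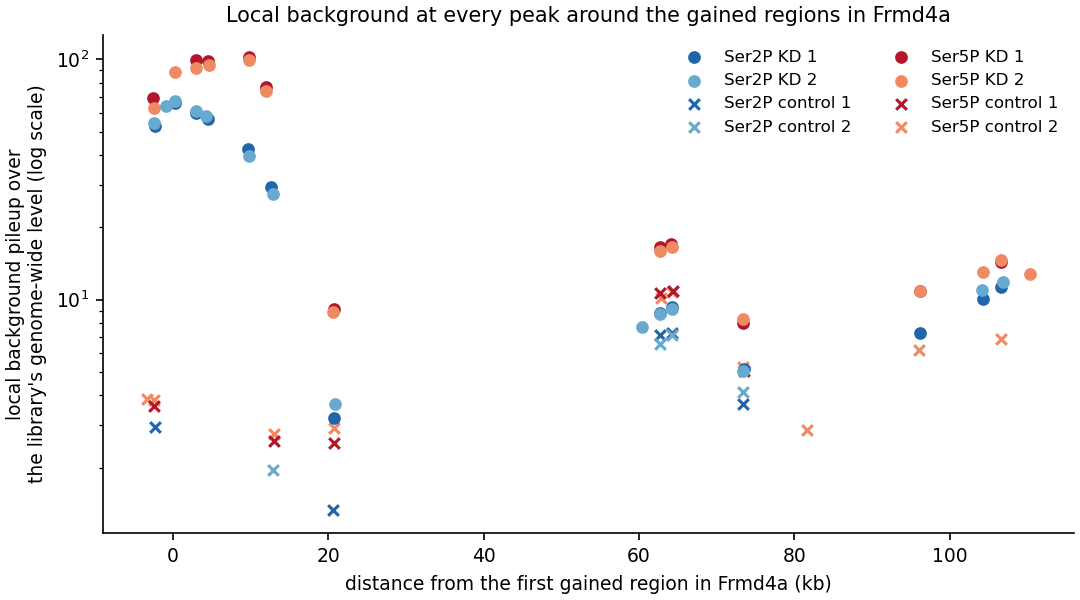
Local background pileup divided by the relative depth of the library (vertical axis, log scale) at every peak around the gained regions of Frmd4a, by distance from the first of them (horizontal axis, kb). Circles are KD and crosses control libraries. Over the first stretch the KD peaks lie between 27.6 and 102 and the control peaks between 1.95 and 3.86, and farther on the lines come close.

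Fgf18, a growth factor gene, held 3 gained regions, at chr11:33131273-33131884, chr11:33134512-33135067 and chr11:33136917-33137443, with folds from 1.66 to 2.42. None of the 3 was gained at scaled depth, equal list length and the stricter threshold together. High local background was shared by 95 gained regions (17.3%), where the median over the KD libraries was at least 10 times the library's relative depth, against 22.43% of the regions marked in all 8 libraries. Beside Frmd4a they included a region inside Tspoap1 (chr11:87759324-87760022), at 67.1 times. In 140 gained regions (25.5%) the background was under 2 times the depth, against 6.12%.

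Regions marked in all 8 libraries gave a measure near the gained regions that the rule had not used. Over 11750 of them with every pileup solved, the depth-scaled summit pileup was lower in the KD than in the control libraries by a median log2 difference of -0.24 for Ser5P and -0.29 for Ser2P, and the following values are relative to those medians. The 229 within 10000 bp of a gained region differed by 0.05 for Ser5P and 0.07 for Ser2P, and the 43 within 2000 bp by 0.02 and 0.04. Constantly marked sites beside gained regions were thus shifted little between the lines. A value for the surroundings could be had for 507 gained regions, as the median over at least 3 such sites within 500 kb, and its median was 0.01 (10th percentile -0.13 and 90th percentile 0.17).

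In 6 of these 507 (1.18%) the surroundings were raised by at least 0.5 on the log2 scale. The share was 0.76% around lost regions (3 of 395) and 0.35% around constantly marked regions. Surroundings lowered by as much were found around 0 gained and 10 lost regions (2.53%). The 6 gained regions with raised surroundings lay on chromosome 9, apart from 1 inside Jade1 (chr3:41598210-41598658). From chr9:72037018 to chr9:73045194, 7 of 7 constantly marked regions lay above the overall median, by 0.34 to 1.06 (median 0.86). This stretch and the next were picked for their raised surroundings after these values were seen, so such counts are a description only. A slightly wider window around the first stretch held 3 gained regions among 78 and no lost region. They were the start of the ubiquitin ligase gene Nedd4 (chr9:72693530-72694213, folds of 3.59 in Ser5P KD 1 and 2.95 and 3.3 for Ser2P), an intergenic region (chr9:72756959-72757722) and a region inside Prtg (chr9:72902718-72903151). In each, the part of the raised surroundings in the gain was not tested.

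A longer stretch, from chr9:121240779 to chr9:123932348, had 20 of 21 constantly marked regions above the overall median, with a median of 0.95 and a highest value of 1.73. Of the 140 regions in a slightly wider window, 2 were gained and 2 lost. The stretch held a gained region inside Trak1, a mitochondrial transport adaptor gene (chr9:121371410-121372236), with folds of 3.83 in Ser5P KD 2 and 3.64 and 4.65 for Ser2P. Just past the end of the stretch, near the chemokine receptor gene Ccr1, lay a gained region marked in all 4 KD libraries (chr9:123935566-123937068). Its folds were 1.73 and 1.83 for Ser5P and 2.05 and 1.81 for Ser2P, on summit pileups of 93, 149, 151 and 131 fragments. At the constantly marked region 9919 bp from it (chr9:123924635-123925646) the summit pileup over depth was 632 and 561 in the Ser5P KD libraries against 249 and 227 in the controls, and 437 and 393 in the Ser2P KD libraries against 127 and 146. KD values exceeded control values for both antibodies at a site marked in every library.

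Only 61 of the 549 regions were gained in the lists as deposited, under the stricter threshold, at equal list length and at scaled depth. They comprised 30 within protein-coding genes, 14 intergenic, 11 at gene starts, 4 in other kinds of gene and 2 past gene ends. The 11 starts were those of Mbnl3, Zfp850, Elf2, Otud3, Dcun1d1, Cilk1, Reps1, Arhgef12, Slk (a kinase), Nt5m (a mitochondrial nucleotidase) and Ctdsp1. Panx1, Ccdc30 and the regions near Ets1 and Sap18 were among the rest, as were 4 of the 5 regions in Frmd4a and the region beside Ccr1. Of single settings, the stricter threshold kept 64 of the 549 (11.7%), scaled depth 154 (28.1%) and equal list length 174 (31.7%).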

How the data were processed

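CUT&Tag for Rpb1 Ser5P and Ser2P was available as 8 peak lists from MEL cells, 1 list a library. GRCm38/mm10 is the build, per the submitters' processing notes, which list MACS2 2.2.7.1, Bowtie2 2.3.5, deepTools 3.3.1, cutadapt 2.7, Picard 2.21.4 and SAMtools 1.9. For the settings of the caller and any input or IgG library it used, nothing is given in the sources used here. With every peak the authors deposited the summit offset, a display score, −log10 of both q and p-value, and the ratio (fold) of summit to local background. These are each list's own values.

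Overlapping peaks were merged into regions on the 19 autosomes and the sex chromosomes. Summit and background pileups were solved from fold and p (tolerance 0.001 on −log10 p, over 99.9% of peaks, tested on simulated data), and relative depth is the modal background of each library. Read totals were not used. Regions were placed by their centre, with start sites of 21532 of 21883 protein-coding genes, from the RefSeq promoter table for 17491 and from the outer gene end, with the strand by symbol from GENCODE vM1, for 4041. Exons and introns were not used.

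All 8 libraries entered the rule, so no test is given. The members, the gene lists and the naming rule were chosen with earlier results of these data known. Named were the 10 leading regions in all 4 KD libraries and the 15 leading gene starts, each by the smallest fold, all regions of listed genes, the 10 leading regions kept in all peak sets, genes with at least 3 regions, and regions within 500 kb of Myb. The settings tried were a −log10 q of 5 or more in all or in some libraries, equal list length (by p), scaled depth, merging of peaks up to 500 bp apart, at least 200 bp covered, a distance of 1000 bp from the other line, all 4 libraries, and leaving out each library. A −log10 q of at least 2, the arrangements under other peak sets, the constantly marked neighbours, the local background and the motifs were chosen after seeing the data. Computations used Python 3.11.15, numpy 2.4.6, pandas 2.3.3 and scipy 1.17.1.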

Additional observations from a re-analysis of the deposited data

How the results depend on the processing

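The count of gained regions, 549, became 349 with a −log10 q of at least 5 in all libraries. It was 64 when this was asked of the KD libraries alone and 2056 when asked of the controls alone. At scaled depth it was 198, and 103 when all 4 KD libraries were needed. Such counts can include regions outside the 549. Only 64 of the 549 were still gained with the stricter threshold in all libraries, and 154 at scaled depth. Leaving out 1 library gave 161 to 1062 gained regions, lowest without Ser2P KD 1 (161) and highest without Ser2P control 1 (1062), with 173 without Ser2P KD 2, 223 without Ser5P KD 2 and 305 without Ser5P KD 1. The count of lost regions, 476, became 141 with the stricter threshold in the controls alone, 1594 with it in the KD libraries alone, 809 at scaled depth and 129 when all 4 controls were needed, and 176 to 779 with 1 library left out (176 without Ser2P control 1, 194 without Ser5P control 2, 196 without Ser5P control 1, 299 without Ser2P control 2, 779 without Ser2P KD 1). Needing all libraries of a line, or fewer of them, changes these counts by construction. The share of gained regions at gene starts, 12.02%, was 22.9% and 18.8% with the stricter threshold in all and in KD libraries, 8.4% and 15.8% with windows of 500 and 2000 bp, and 10.8% to 14.6% with 1 library left out. The 22.9% was 80 of the 349 regions, so it mostly describes regions outside the 549. All other settings kept the 3 values within 1.5 times or within the interval of the share. Equal numbers of peaks did so too, but the order of gained and lost turned. Only 174 of the 549 regions (31.7%) were still gained there, so a like count did not mean the same regions. No paired analysis was possible because the results come from no test.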

Other observations

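The local background also marked places where the control line was higher. Of the 18032 regions with a peak of each antibody in each line, 2 had a mean log2 background at least 2 higher in the KD line, both in Frmd4a, and 7 had it at least 2 lower. They were chr17:83956252-83957062 and chr17:83961374-83963232 near Haao, with -4.19 and -3.66, the start of Rcbtb1 (chr14:59200584-59201694) with -3.47, a region inside Plekha6 (chr1:133189987-133190898) with -3.45, a region near St3gal1 (chr15:67460135-67460928) with -2.69, and the starts of Lrrfip2 (chr9:111117837-111119372) with -2.36 and Dgkd (chr1:87852655-87853880) with -2.04. The nearest lost region lay 593 to 19000 bp from these 7 regions. The nearest gained region was 48918 bp from the Dgkd start and 460627 to 1427699 bp from the others. These regions were picked by rank after seeing the data, and the difference was not tested.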
